A study of Homo sapiens with 8 samples.

Results

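MDA-MB-231 is an established human triple-negative breast cancer line with mesenchymal features. The libraries compared here came from MDA-MB-231 cells that had received Cas9 and guide RNAs against ETV1, ETV4 and ETV5 by nucleofection and were then grown on plastic as a monolayer (2D) or inside a gel of collagen I (3D). They are 4 of the 8 libraries of the series, 2 of knockout monolayers and 2 of knockout gels, chosen by the group that their labels give, and all genes were compared. The other 4 libraries, 2 of monolayers and 2 of gels, carry control guides and are used only where the change with culture in knockout cells is set beside that in control cells. The medium of every group was DMEM/F12 plus 10% serum. Gels were cast as 80 µl droplets of 100000 cells per ml in ultra-low-attachment plates, at either of 2 collagen concentrations that the labels do not assign to libraries. No source used here says how long the cells were cultured, how much editing they carry, whether they are a pool or a clone, or whether a group's libraries are separate cultures, so p-values measure only the spread between these libraries.

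ETV1, ETV4 and ETV5 form the PEA3 group of the ETS transcription factors, which act downstream of receptor tyrosine kinases and ERK. Collagen I is the main fibrous protein of the stroma around breast tumours. A cell inside it is held through integrins and other collagen receptors on all sides, whereas a cell on plastic spreads on a stiff, flat surface. The groups also differ in their harvest. Cells were freed from gels by collagenase I at 37 °C for 10 and then 5 min with pipetting, washed and frozen, while monolayers went straight into lysis, so an effect of culture and an effect of harvest cannot be told apart.

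The 4 knockout libraries held 16204101 to 19250921 counts. Mitochondrially encoded genes took 4.47 and 4.37% of the counts in the monolayers and 3.82 and 2.65% in the gels, and the lowest share was that of gel library 2. Levels are in CPM (counts scaled by library size and TMM factors), and a log2 change is the gel level over the monolayer level from edgeR's fit, with its SE, so a positive value is higher in gels. All 8 markers of the line (VIM, CD44, EGFR, AXL, CAV1, CAV2, MSN and ANXA1) were detected, with a summed level of 9456 to 9493 CPM in the monolayers and 10560.0 to 10622 CPM in the gels. The luminal hormone receptors were nearly absent, with 0 or 1 count of ESR1 and 0 of PGR in each of the 4 libraries, but the 9 luminal markers summed to 1339 to 1412 CPM in the monolayers and 1353 to 1359 CPM in the gels. Most of that sum was KRT8 (492 to 553 CPM over the 4 libraries), KRT18 (358 to 378 CPM) and KRT19 (399.6 to 493 CPM). Markers of leukocytes summed to 4.85 to 5.01 CPM in the monolayers and 3.19 to 3.45 CPM in the gels, those of endothelium to 9.41 to 11.1 CPM in the monolayers and 7.17 to 8.66 CPM in the gels and those of fibroblasts to 24.2 to 25.2 CPM in the monolayers and 12.2 to 14.3 CPM in the gels. TYROBP and CDH5 had 0 counts in all 4 libraries, and COL1A2, DCN and PDGFRA had 0 to 3. Other markers of these cell types were detected. Over the 4 libraries COL1A1 had 170 to 335 counts, PDGFRB 45 to 104, PECAM1 62 to 135 and KDR 40 to 69. The leukocyte markers CD14 and LYZ had 14 to 36 and 24 to 45 counts.

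Of 15568 tested genes, 5915 (38%) differed between knockout gels and knockout monolayers at an adjusted p under 0.05. Of these, 3122 (20.1% of the tested genes) were higher and 2793 (17.9%) were lower in gels. Most changes were small. Among the called genes the median size was 0.36 on the log2 scale, 4041 changed by less than 0.5 and 724 by more than 1. A change shown to exceed 1.5-fold was called for 303 genes (1.95%), 75 higher (0.482%) and 228 lower (1.46%); it was called for 104 by DESeq2, 191 without monolayer library 1 and 186 without gel library 2. By DESeq2 1675 genes were lower. The balance of rises and falls depended on the scaling: with the upper quartile 2293 genes rose and 3360 fell, and with library size alone 2089 rose and 3539 fell.

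**Figure D1:**
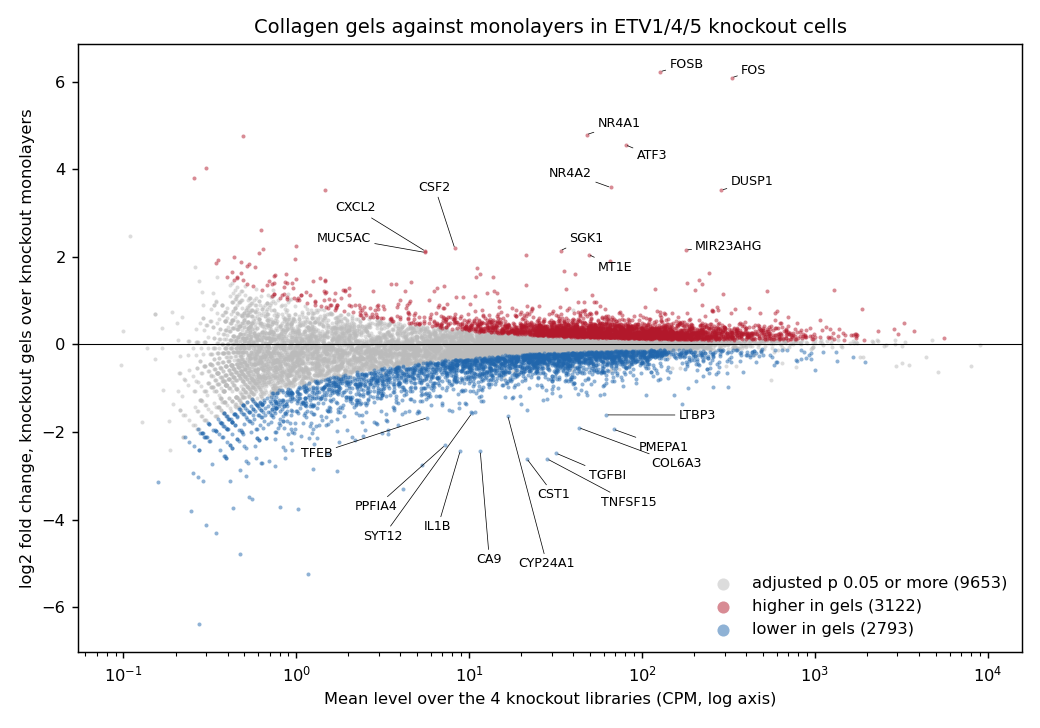
Each point is a tested gene, with its mean CPM over the 4 knockout libraries on a log axis and its log2 fold change from knockout monolayers to knockout gels. Red points (3122) were higher and blue points (2793) lower in gels at an adjusted p under 0.05, and names mark the 12 genes with the largest rise and the 12 with the largest fall at 5 CPM or more; FOSB and FOS stand highest, at 6.23 and 6.09.

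The genes that were targeted did not change detectably with culture. ETV1 stood at 136 and 151 CPM in the monolayers and 138 and 141 CPM in the gels (log2 -0.045 ± 0.052, adjusted p = 0.532). For ETV4 the levels were 63.5 and 61.2 CPM in the monolayers and 67.1 and 62.99 CPM in the gels (log2 0.061 ± 0.063, adjusted p = 0.470); with a correction for length and GC content it passed (log2 0.14, adjusted p = 0.0372). ETV5 was measured at 117 and 117 CPM in the monolayers and 117 and 115 CPM in the gels (log2 -0.015 ± 0.054, adjusted p = 0.853). The 95% intervals of the log2 change ran from -0.15 to 0.062 for ETV1, -0.067 to 0.19 for ETV4 and -0.13 to 0.10 for ETV5. Transcripts of all 3 remained present in the knockout cells, which says nothing of the protein, since small insertions or deletions need not remove the RNA. Among 15 other tested ETS factors 3 rose and 4 fell: ETS1 (log2 0.39), ELF4 (log2 0.31) and ETS2 (log2 0.31), and ELF3 (log2 -1.57), ETV6 (log2 -0.46), EHF (log2 -0.41) and ERF (log2 -0.36). Over all tested genes 20.1% rose and 17.9% fell, so these counts show nothing particular to the family. Those shares are also the background of each later count of list members that rose or fell in knockout gels. ETV6 and ERF are repressors of the family, and ELF3 and EHF are epithelial members.

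The immediate-early genes showed the largest rises in the gels. These genes encode transcription factors and feedback regulators that growth factors, strain, stress and enzymatic dissociation of tissue switch on within minutes. Of 32 tested members of the list, 26 rose and 1 fell, and 13 of the 26 passed the test for more than 1.5-fold; the median log2 change was 0.52 against -0.0063 over all tested genes. FOS, an AP-1 subunit (chr14:75278828-75282230, GRCh38), stood at 9.97 and 9.22 CPM in the monolayers and 649 and 655 CPM in the gels (68.1-fold, log2 6.09 ± 0.065, adjusted p = 1.05e-38). Its relative FOSB was at 2.78 and 3.87 CPM in the monolayers and 295 and 208 CPM in the gels (74.9-fold, log2 6.23 ± 0.33, adjusted p = 2.32e-04). Both knockout gel libraries were far above both monolayer libraries for each gene. The stress-induced factor ATF3 was at 5.98 and 7.09 CPM in the monolayers and 168 and 140.4 CPM in the gels (23.5-fold, log2 4.55 ± 0.11, adjusted p = 2.87e-18). DUSP1, a nuclear phosphatase that switches off MAP kinases, had 46.1 and 45.9 CPM in the monolayers and 524 and 534 CPM in the gels (11.5-fold, log2 3.52 ± 0.056, adjusted p = 4.05e-33). Among the orphan nuclear receptors, NR4A1 had 3.87 and 2.84 CPM in the monolayers and 108 and 75.9 CPM in the gels (log2 4.79 ± 0.30), and 10.3% of its exonic bases overlap a gene on the other strand, so its counts are uncertain without the strand setting. NR4A2 had 11.2 and 9.11 CPM in the monolayers and 139 and 103 CPM in the gels (log2 3.58 ± 0.24), while NR4A3, the remaining receptor of that family, was not called (log2 -0.27 ± 0.40).

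Other members rose less. ZFP36, which marks cytokine mRNAs for decay, reached 27.5 and 27.7 CPM in the monolayers and 109.8 and 96.2 CPM in the gels (log2 1.90 ± 0.071). PPP1R15A, the phosphatase subunit that reverses eIF2alpha phosphorylation, stood at 117 and 107 CPM in the monolayers and 318 and 308 CPM in the gels (log2 1.48 ± 0.050). EGR1 was measured at 106 and 94.2 CPM in the monolayers and 274 and 255 CPM in the gels (log2 1.41 ± 0.055). For all of them the gel libraries lay above the monolayer libraries. JUN (log2 0.28 ± 0.048) and JUNB (log2 0.37 ± 0.053), other subunits of AP-1, rose by much less than FOS and FOSB. BTG1 was the member that fell (log2 -0.22 ± 0.055), and EGR2 was not called (log2 0.37 ± 0.30). In control cells 26 of the 32 also rose, with a median of 0.57; over all tested genes 16% were higher and 10.7% lower in control gels, the background of each control count given here. The change differed between knockout and control cells for 9 members (an interaction test), more positive in knockout for 4 and more negative for 5. Over all tested genes that difference was more positive for 2.67% and more negative for 3.94%. For DUSP1 the difference was log2 0.67 ± 0.076, adjusted p = 1.29e-07, with log2 2.85 ± 0.054 in control cells. JUNB, FOS and EGR1 were among the 5 that were more negative. For JUNB the difference was log2 -0.43, adjusted p = 1.89e-04, with log2 0.80 in control cells. The calls of FOS and EGR1 were not stable. FOS lost its call by DESeq2 (log2 -0.38), and EGR1 without monolayer library 1 (log2 -0.22), among other settings.

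The promoters of a pair of these genes and of EGR1 are shown because they carry response elements that immediate-early genes are known for. Each is the 250 bases before the annotated start (RefSeq, GRCh38.p14), written 5′ to 3′ along the gene's strand. Capitals mark TGACG, the core of the cAMP response element, on either strand, and in EGR1 also the CArG boxes bound by serum response factor.
FOS, chr14:75278578-75278827, plus strand: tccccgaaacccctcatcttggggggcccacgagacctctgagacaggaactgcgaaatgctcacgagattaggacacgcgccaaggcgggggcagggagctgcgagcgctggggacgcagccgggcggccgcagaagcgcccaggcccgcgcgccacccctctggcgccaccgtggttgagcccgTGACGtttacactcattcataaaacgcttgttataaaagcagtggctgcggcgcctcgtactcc
DUSP1, chr5:172771196-172771445, minus strand: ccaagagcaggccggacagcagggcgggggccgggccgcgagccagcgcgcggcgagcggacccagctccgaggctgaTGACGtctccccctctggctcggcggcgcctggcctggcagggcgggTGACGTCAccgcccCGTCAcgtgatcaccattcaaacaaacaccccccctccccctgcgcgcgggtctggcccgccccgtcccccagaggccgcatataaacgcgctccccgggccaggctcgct
EGR1, chr5:138465229-138465478, plus strand: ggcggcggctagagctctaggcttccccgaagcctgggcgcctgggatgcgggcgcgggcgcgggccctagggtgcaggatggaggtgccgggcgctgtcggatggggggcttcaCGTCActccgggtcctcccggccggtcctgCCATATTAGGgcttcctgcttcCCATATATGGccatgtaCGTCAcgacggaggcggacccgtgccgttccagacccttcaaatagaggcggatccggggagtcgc
Of the 26 immediate-early genes that rose, 20 had a promoter in the table and 12 of these 20 (60.0%) held TGACG, which 29.8% of the 11102 promoters of tested genes and 21.7% of all 27305 promoters held. The share was the same over all tested members of the list with a promoter, 15 of 25 (60.0%), so it describes the list and not the rise. The windows of NR4A1 and ATF3 held no TGACG. The CArG box was in the EGR1 window alone among the 20 (5.0%), against 1.05% of tested genes and 1.14% of all promoters. Only these windows were searched, so a site further upstream, or at another start of the same gene, is not counted. These matches are a description of the letters in the window and not of bound sites.

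Outside the immediate-early list, 6 of the 12 largest rises were of secreted or metal-handling proteins, a kinase and a microRNA host. The 12 largest rises and falls, here and below, are those of called genes of at least 5 CPM whose groups did not overlap. Clone, LOC, LINC and antisense names were left out. Among tested genes outside these limits falls reached log2 -6.39. CSF2, the cytokine GM-CSF, was at 3.08 and 2.84 CPM in the monolayers and 12.8 and 14.3 CPM in the gels (log2 2.19 ± 0.16). CXCL2, a neutrophil chemokine, had 1.99 and 2.13 CPM in the monolayers and 8.88 and 9.25 CPM in the gels (log2 2.13 ± 0.19). MUC5AC, a gel-forming mucin, stood at 2.60 and 1.64 CPM in the monolayers and 8.60 and 9.41 CPM in the gels (log2 2.10 ± 0.21). These 3 genes were low in every library and rose above their monolayer values in both gels. SGK1, a kinase induced by serum and glucocorticoids, had 12.2 and 12.7 CPM in the monolayers and 55.5 and 54.6 CPM in the gels (log2 2.14 ± 0.089). MIR23AHG, the host transcript of the miR-23a, miR-27a and miR-24 cluster, had 69.9 and 61.8 CPM in the monolayers and 342 and 245 CPM in the gels (log2 2.16 ± 0.24). MT1E, a metal-binding metallothionein, had 18.8 and 19.5 CPM in the monolayers and 82.3 and 76.3 CPM in the gels (log2 2.05 ± 0.075), and the near-identical copies of its family make its own count uncertain. Of 6 tested metallothioneins and zinc-handling genes, 4 rose, MT1E (log2 2.05), MT1X (log2 1.34), SLC30A1 (log2 1.13) and MT2A (log2 0.83), and the zinc importer SLC39A10 fell (log2 -0.82 ± 0.062).

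**Figure D2:**
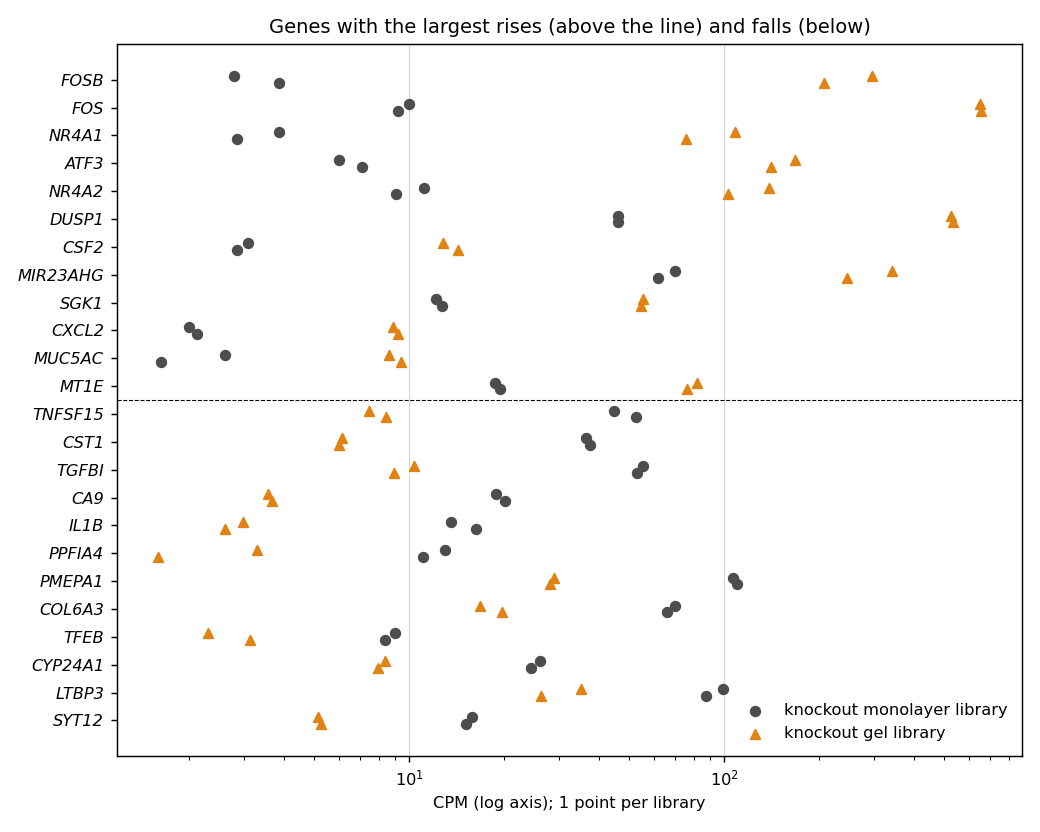
CPM of each knockout library on a log axis for the 12 genes with the largest rises (above the dashed line) and the 12 with the largest falls (below it); circles are monolayer libraries and triangles gel libraries, 2 of each per gene. For every gene the 2 groups do not overlap, which the naming rule required.

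Genes of the ERK pathway's output and feedback rose more often than they fell. Of 26 tested members 14 rose and 4 fell, with a median log2 change of 0.15. Of the 26, 4 are also on the immediate-early list, 3 on the list of NF-kB targets and cytokines, and 2 are targeted genes. SPRY2, a feedback inhibitor of receptor tyrosine kinase signalling, had 197 and 208 CPM in the monolayers and 353 and 347 CPM in the gels (log2 0.79 ± 0.053, adjusted p = 5.93e-13). The EGF receptor ligands EREG (89.6 and 100.4 CPM in the monolayers and 162 and 157 CPM in the gels; log2 0.75 ± 0.055, adjusted p = 6.32e-13) and HBEGF (57.7 and 54.3 CPM in the monolayers and 91.2 and 92.3 CPM in the gels; log2 0.71 ± 0.060, adjusted p = 2.05e-11) rose too. The gel libraries were above the monolayer libraries for all 3. The 4 that fell were DUSP4 (log2 -0.37), SPRED3 (log2 -0.32), DUSP7 (log2 -0.24) and SPRED1 (log2 -0.16), which are themselves phosphatases or inhibitors of the pathway. Leaving out monolayer library 1, or using DESeq2, left 2 of these calls. DUSP7 lost its call without monolayer library 1 (log2 -0.19). SPRED1 lost its call by DESeq2 (log2 -0.15), with no filter on low counts (-0.15), with only the knockout libraries (-0.17), without monolayer library 2 (-0.11) and without gel library 1 (-0.085). SPRED3 lost its call by DESeq2 (log2 -0.31), without monolayer library 1 (-0.17) and without gel library 2 (-0.27). In control cells 16 of the 26 rose and none fell.

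Hypoxia-response genes moved the other way and fell in the gels. Under low oxygen, HIF transcription factors turn on genes for glycolysis, pH control, blood vessel growth and collagen modification. Of 38 tested members of the list, 31 fell and 2 rose (ADM (log2 0.64) and HK2 (log2 0.30)), with a median log2 change of -0.53 against -0.0063 for all tested genes. CA9, a cell-surface carbonic anhydrase and standard hypoxia marker (chr9:35673928-35681159), was at 18.9 and 20.2 CPM in the monolayers and 3.56 and 3.67 CPM in the gels (5.40-fold lower, log2 -2.43 ± 0.15, adjusted p = 1.44e-12). Both gel libraries were far below both monolayer libraries, though 38.5% of the exonic bases of CA9 overlap ARHGEF39 on the other strand, so its counts are uncertain. VEGFA, the main signal for blood vessel growth, stood at 329 and 331 CPM in the monolayers and 214 and 200.3 CPM in the gels (log2 -0.67 ± 0.047, adjusted p = 1.70e-13). PFKFB4, which raises glycolytic flux, was at 39.5 and 36.6 CPM in the monolayers and 16.9 and 14.5 CPM in the gels (log2 -1.27 ± 0.098, adjusted p = 3.86e-11). BNIP3, a mitophagy receptor, had 242 and 258 CPM in the monolayers and 163 and 170.3 CPM in the gels (log2 -0.58 ± 0.051, adjusted p = 4.73e-11). PPFIA4, a liprin, was among the 12 largest falls, at 12.99 and 11.1 CPM in the monolayers and 3.29 and 1.59 CPM in the gels (log2 -2.30 ± 0.19, adjusted p = 4.45e-09). In all 5 genes the highest gel library was below the lowest monolayer library, which the naming rule required for CA9 and PPFIA4. The HIF hydroxylase EGLN3 (log2 -1.38 ± 0.26) and NDRG1 (log2 -1.35 ± 0.079) fell as well.

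Glycolysis genes, 7 of which are also on the hypoxia list, fell by less. Of 19 tested members 11 fell and 1 rose, with a median of -0.13; 7 fell without monolayer library 2, without gel library 1 or without gel library 2. LDHA, which makes lactate, had 2150.4 and 2274 CPM in the monolayers and 1647 and 1697 CPM in the gels (log2 -0.40 ± 0.047, adjusted p = 2.44e-08). PGK1, which makes ATP in the pathway, had 972 and 994 CPM in the monolayers and 776 and 817 CPM in the gels (log2 -0.30 ± 0.049, adjusted p = 7.26e-06). For the neuronal enolase ENO2 the levels were 119 and 113 CPM in the monolayers and 71.5 and 63.4 CPM in the gels (log2 -0.78 ± 0.068, adjusted p = 2.19e-09). These 3 enzymes were lower in both gel libraries than in either monolayer library. HK2, the hexokinase that commits glucose to the pathway, was the member that rose (175 and 172 CPM in the monolayers and 210.0 and 217 CPM in the gels; log2 0.30 ± 0.048, adjusted p = 7.12e-06). GAPDH (log2 -0.026 ± 0.046), PKM (log2 0.049 ± 0.045) and ENO1 (log2 0.062 ± 0.049) were not called.

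In control cells the same lists went the other way. Of the 38 hypoxia genes 15 rose and 6 fell in control gels, with a median of 0.12, and 16 of the 19 glycolysis genes rose and none fell, with a median of 0.31. There were 14 hypoxia genes and 9 glycolysis genes that fell in knockout gels and rose in control gels, each at an adjusted p under 0.05. The interaction, which tests the difference between the changes, was more negative in knockout for 27 hypoxia genes and 15 glycolysis genes, and more positive for 1 (ADM) and 0. BNIP3 in control cells had 309 and 341 CPM in the monolayers and 468 and 454 CPM in the gels (log2 0.51 ± 0.049), a rise, and the difference was log2 -1.09 ± 0.071, adjusted p = 9.25e-13. CA9 in control cells had 31.2 and 39.96 CPM in the monolayers and 45.6 and 40.6 CPM in the gels (log2 0.30 ± 0.091), and the difference was log2 -2.73 ± 0.18, adjusted p = 1.15e-10. For LDHA the control change was log2 0.34 ± 0.047 and the difference log2 -0.75 ± 0.067, adjusted p = 1.01e-09. The label of the control monolayers names control guides without Cas9, while those of the other groups name Cas9, so an effect of Cas9 and one of the knockout cannot be told apart in any interaction given here.

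**Figure D3:**
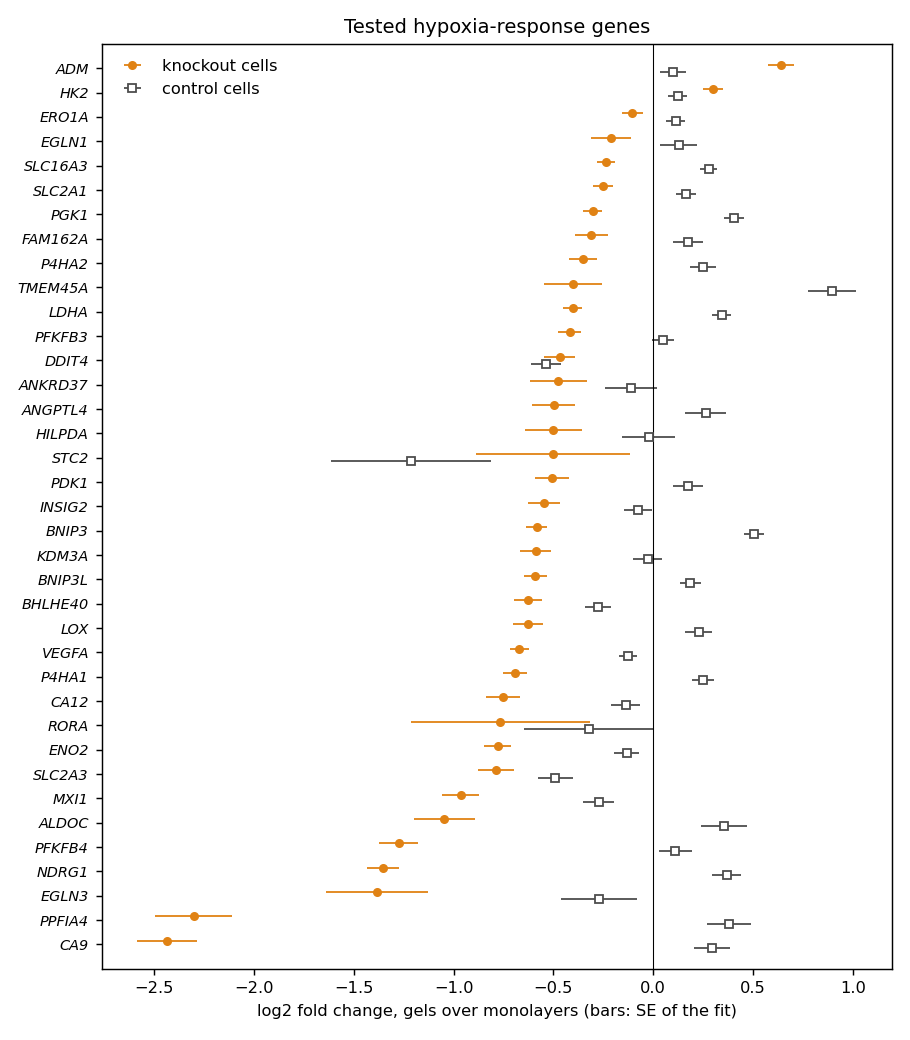
Log2 fold change from monolayers to gels, with the SE of the fit as bars, for 37 of the 38 tested hypoxia-response genes, in knockout cells (filled circles) and in control cells (open squares). The knockout values lie below 0 for 35 of the 37 genes drawn, and for most of them left of the control value.

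The promoters of CA9 and BNIP3 are shown for the core of the hypoxia response element, ACGTG, which is in capitals on either strand. The windows are as above.
CA9, chr9:35673678-35673927, plus strand: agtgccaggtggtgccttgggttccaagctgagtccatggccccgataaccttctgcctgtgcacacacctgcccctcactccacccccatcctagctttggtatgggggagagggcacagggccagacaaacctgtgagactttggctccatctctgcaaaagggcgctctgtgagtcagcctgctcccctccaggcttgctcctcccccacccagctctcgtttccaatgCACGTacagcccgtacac
BNIP3, chr10:131981924-131982173, minus strand: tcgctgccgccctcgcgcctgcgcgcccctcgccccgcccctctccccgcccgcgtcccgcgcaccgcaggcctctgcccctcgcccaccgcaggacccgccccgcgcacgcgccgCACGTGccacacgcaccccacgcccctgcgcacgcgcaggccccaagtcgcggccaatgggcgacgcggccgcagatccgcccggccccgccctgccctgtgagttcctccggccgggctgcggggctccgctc
Of the 31 hypoxia genes that fell, 26 had a promoter in the table and 15 of the 26 (57.7%) held ACGTG. The shares were 23.4% over the promoters of tested genes and 18.7% over all promoters. The list holds known HIF targets, so this share is a description and not an independent result.

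Targets and regulators of TGF-beta fell more often than they rose. TGF-beta is released from latent complexes in the matrix and drives matrix production and invasion in breast cancer cells. Of 31 tested members 20 fell and 6 rose, with a median log2 change of -0.28. TGFBI, a matrix protein named for its induction by TGF-beta (chr5:136028988-136063818), was at 55.3 and 52.7 CPM in the monolayers and 10.4 and 8.98 CPM in the gels (5.58-fold lower, log2 -2.48 ± 0.10, adjusted p = 1.93e-20). PMEPA1, a feedback inhibitor of SMAD signalling, stood at 106 and 110.3 CPM in the monolayers and 28.8 and 27.9 CPM in the gels (3.82-fold lower, log2 -1.93 ± 0.069, adjusted p = 8.43e-22). LTBP3, which tethers latent TGF-beta, had 99.2 and 87.6 CPM in the monolayers and 35.2 and 26.2 CPM in the gels (log2 -1.61 ± 0.12, adjusted p = 2.09e-06). For these 3 genes each gel value lay far below each monolayer value. The receptor TGFBR1 (log2 -0.28 ± 0.058) and the ligand TGFB2 (log2 -0.62 ± 0.073) also fell. ID3, a target of the BMP branch, rose (7.91 and 8.84 CPM in the monolayers and 37.04 and 31.8 CPM in the gels; log2 2.04 ± 0.11, adjusted p = 6.32e-17), as did ID1 (log2 0.59 ± 0.073), the pseudoreceptor BAMBI (log2 0.45 ± 0.17), CCN2, FST (0.25) and BMP4 (0.21). BAMBI lost its call by DESeq2 (log2 0.45), with upper-quartile scaling (0.40), with library size alone (0.39), without monolayer library 2 (0.28) and without gel library 2 (0.34). In control cells 5 members rose and 12 fell, and the interaction was more positive for 4 and more negative for 8, among them PMEPA1 (log2 -1.21 ± 0.10, adjusted p = 5.11e-10; control change log2 -0.72 ± 0.076).

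The collagen genes of the cells fell more often than they rose in the collagen gels. Of 22 tested collagens 13 fell and 3 rose, with a median log2 change of -0.68; 9 fell by DESeq2 or without gel library 2. COL6A3, a chain of the microfibrillar collagen VI (chr2:237324018-237414164), was at 70.01 and 66.05 CPM in the monolayers and 16.8 and 19.7 CPM in the gels (3.73-fold lower, log2 -1.90 ± 0.081, adjusted p = 1.18e-19). COL5A1, a chain that starts collagen fibrils, had 125 and 114 CPM in the monolayers and 65.1 and 65.5 CPM in the gels (log2 -0.87 ± 0.058, adjusted p = 5.48e-14). COL4A1, a basement membrane chain, had 145 and 143 CPM in the monolayers and 88.8 and 86.5 CPM in the gels (log2 -0.72 ± 0.053, adjusted p = 6.32e-13). Each of the 3 was lower in both gels. COL18A1 fell too (log2 -0.78 ± 0.054), with 16.4% of its exonic bases shared with SLC19A1 on the other strand. The 3 that rose were COL12A1 (log2 0.96), COL17A1 (log2 0.39) and COL6A1 (log2 0.19). COL6A1 lost its call with upper-quartile scaling (log2 0.14) and with library size alone (0.12). The collagen I of the gel itself is protein and gives no reads, and COL1A1 was low and fell (18.4 and 18.3 CPM in the monolayers and 11.6 and 9.04 CPM in the gels; log2 -0.83 ± 0.12, adjusted p = 6.27e-07).

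Enzymes that modify and crosslink collagen fell as well, 12 of 22 tested, against 1 that rose (P3H2 (log2 0.36)), with a median of -0.17. PLOD2, a lysyl hydroxylase, stood at 174 and 183 CPM in the monolayers and 104 and 106 CPM in the gels (log2 -0.76 ± 0.051, adjusted p = 3.83e-14). P4HA1, a prolyl hydroxylase subunit, was at 103 and 114 CPM in the monolayers and 67.1 and 67.6 CPM in the gels (log2 -0.69 ± 0.061, adjusted p = 5.53e-11), and TGM2, a transglutaminase, at 384 and 374 CPM in the monolayers and 242 and 240.1 CPM in the gels (log2 -0.65 ± 0.045, adjusted p = 1.44e-13). LOXL4, a lysyl oxidase, had 44.9 and 47.3 CPM in the monolayers and 26.5 and 25.9 CPM in the gels (log2 -0.82 ± 0.079, adjusted p = 4.01e-10). For all 4 the knockout groups did not overlap. Of the list's members 3 are also on the hypoxia list. In control cells 1 member fell and 4 rose, and the interaction was more negative for 10 of the 22 and more positive for 1.

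Among 30 tested matrix glycoproteins 7 rose and 11 fell, with a median of -0.12. FN1, fibronectin, had 683 and 665 CPM in the monolayers and 477 and 493 CPM in the gels (log2 -0.47 ± 0.052, adjusted p = 2.21e-08), and EFEMP1, a fibulin, had 39.3 and 42.98 CPM in the monolayers and 20.3 and 17.97 CPM in the gels (log2 -1.11 ± 0.086, adjusted p = 2.61e-12). Both were lower in each gel library. Fibrillin genes rose, FBN1 at 40.5 and 37.5 CPM in the monolayers and 53.1 and 56.8 CPM in the gels (log2 0.50 ± 0.080, adjusted p = 1.33e-05), and FBN2 at a low level (0.362 and 0.109 CPM in the monolayers and 2.47 and 2.92 CPM in the gels; log2 3.52 ± 0.43, adjusted p = 7.10e-08).

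Proteases that cut the matrix and their inhibitors fell more often than they rose in gels. Of 26 tested metalloproteinases and inhibitors 16 fell and 3 rose (ADAMTS1 (log2 1.63), ADAMTS9 (log2 0.49) and MMP1 (log2 0.32)), with a median log2 change of -0.34; 12 fell by DESeq2 and 11 without gel library 2. ADAMTS1, a secreted protease that cuts proteoglycans, had 117 and 123 CPM in the monolayers and 380.0 and 360.5 CPM in the gels (log2 1.63 ± 0.051, adjusted p = 2.36e-23). MMP1, the interstitial collagenase, was at 9.12 and 11.5 CPM in the monolayers and 12.2 and 13.7 CPM in the gels (log2 0.32 ± 0.13, adjusted p = 0.0462). Both genes were higher in each gel library, but the call of MMP1 was not stable: it was lost by DESeq2 (log2 0.33), with upper-quartile scaling (0.27), with library size alone (0.25), with a stricter filter (0.29), with only the knockout libraries (0.31), with a length and GC correction (0.27), without monolayer library 1 (0.18) and without gel library 2 (0.23). MMP14, the membrane-bound collagenase that cells need to invade collagen, fell (1074 and 1044 CPM in the monolayers and 856 and 819.8 CPM in the gels; log2 -0.34 ± 0.046, adjusted p = 3.99e-07). The surface proteases ADAM8 (log2 -0.66 ± 0.049) and ADAM19 (log2 -0.82 ± 0.052) fell, as did the inhibitors TIMP1 (277 and 289 CPM in the monolayers and 190.0 and 192 CPM in the gels; log2 -0.57 ± 0.047, adjusted p = 1.14e-11), TIMP2 (log2 -0.32 ± 0.045) and TIMP3 (log2 -0.28 ± 0.047).

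The plasminogen system split. Both activators fell: PLAT, tissue plasminogen activator, was at 249.6 and 275 CPM in the monolayers and 147 and 145 CPM in the gels (log2 -0.84 ± 0.053, adjusted p = 2.23e-14), and PLAU, urokinase, at 467 and 465 CPM in the monolayers and 298 and 305 CPM in the gels (log2 -0.63 ± 0.044, adjusted p = 1.80e-13), with 31.1% of its exonic bases overlapping C10orf55 on the other strand. The receptor PLAUR (log2 0.22 ± 0.056), tissue factor (log2 0.27 ± 0.050 for the gene F3) and the serpin SERPINB8 (log2 0.50 ± 0.079) rose. In all, 6 of 13 tested members rose and 4 fell, with a median of 0.22.

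Cystatins and cathepsins fell in 12 of 18 tested cases and rose in 1 (CTSC (log2 0.18)), with a median of -0.35. CTSC lost its call with library size alone (log2 0.11). CST1, a secreted inhibitor of cysteine proteases (chr20:23747562-23750935), was at 36.5 and 37.4 CPM in the monolayers and 6.14 and 6.01 CPM in the gels (6.09-fold lower, log2 -2.61 ± 0.11, adjusted p = 1.18e-19), and its close paralog CST4, whose reads may be shared with it, at 14.4 and 17.6 CPM in the monolayers and 5.53 and 5.47 CPM in the gels (log2 -1.54 ± 0.12, adjusted p = 3.53e-12). CTSB, a lysosomal protease that tumour cells can secrete, had 277 and 289 CPM in the monolayers and 211 and 214 CPM in the gels (log2 -0.41 ± 0.048, adjusted p = 1.96e-08). All 3 were lower in both gels.

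Receptors for the matrix were mixed, with 4 of 21 tested integrins and collagen receptors higher, CD44 (log2 0.43), SDC4 (log2 0.25), ITGA6 (log2 0.21) and ITGB4 (log2 0.16), 9 lower and a median of -0.12. ITGB4 lost its call with upper-quartile scaling (log2 0.10), with library size alone (0.090), with a stricter filter (0.13), without monolayer library 2 (0.12) and without gel library 2 (0.16). DDR1, a tyrosine kinase that collagen activates, was at 68.8 and 65.9 CPM in the monolayers and 40.1 and 35.2 CPM in the gels (log2 -0.84 ± 0.069, adjusted p = 8.24e-12). MRC2, the receptor that takes up collagen fragments, had 88.4 and 81.97 CPM in the monolayers and 51.5 and 44.7 CPM in the gels (log2 -0.82 ± 0.068, adjusted p = 8.89e-12). ITGA5, the fibronectin receptor subunit, stood at 216 and 211 CPM in the monolayers and 151 and 152 CPM in the gels (log2 -0.50 ± 0.055, adjusted p = 2.17e-08). Each of these was lower in both gels, and ITGA1 (log2 -0.48 ± 0.075), a subunit of a collagen-binding integrin, fell too. ITGA2, a subunit of the main collagen I receptor of epithelial cells, was not called (log2 0.074 ± 0.048). CD44, the hyaluronan receptor, had 414 and 449 CPM in the monolayers and 569 and 591 CPM in the gels (log2 0.43 ± 0.048, adjusted p = 1.37e-08).

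Markers of the mesenchymal state fell more often than they rose, and neither they nor the epithelial markers moved as a block. Of 15 tested mesenchymal genes 3 rose (CDH11 (log2 0.33), AXL (log2 0.19) and VIM (log2 0.14)) and 8 fell (5 by DESeq2), with a median of -0.24, and VIM had 5351 and 5284 CPM in the monolayers and 5929 and 5788 CPM in the gels. VIM lost its call with upper-quartile scaling (log2 0.087), with library size alone (0.073), with a stricter filter (0.11), without monolayer library 1 (0.16), without monolayer library 2 (0.12), without gel library 1 (0.14) and without gel library 2 (0.15). AXL lost its call without monolayer library 2 (log2 0.15). The factor ZEB1 (log2 0.030 ± 0.057) and CDH2 (log2 0.084 ± 0.45) were not called. Of 20 tested epithelial genes 2 rose, among them EPCAM (0.68 on the log2 scale), and 6 fell, with a median of -0.020. The tight-junction claudins CLDN7 (79.6 and 76.8 CPM in the monolayers and 43.6 and 36.99 CPM in the gels; log2 -0.96 ± 0.068, adjusted p = 2.37e-13) and CLDN4 (47.2 and 44.8 CPM in the monolayers and 25.6 and 26.2 CPM in the gels; log2 -0.83 ± 0.077, adjusted p = 1.71e-10) were among those that fell, and both were lower in each gel library. Among 11 keratins KRT7, KRT81 and KRT14 fell and KRT10 rose (log2 0.37 ± 0.068), with KRT7 at 254 and 239 CPM in the monolayers and 125 and 122 CPM in the gels (log2 -1.0001 ± 0.051, adjusted p = 2.72e-17). KRT14 lost its call with only the knockout libraries (log2 -1.83), without monolayer library 1 (-1.62), without monolayer library 2 (-2.02) and without gel library 2 (-0.84).

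Targets of YAP and TAZ, coactivators that respond to cell spreading and tension, rose more often than they fell. Of 28 tested members 15 rose and 3 fell (TGFB2 (log2 -0.62), RBMS3 (log2 -0.61) and NT5E (log2 -0.28)), with a median log2 change of 0.17. CCN1, a secreted matrix-bound protein (chr1:85580761-85583950), was at 790.0 and 738 CPM in the monolayers and 1791 and 1832 CPM in the gels (2.37-fold, log2 1.245 ± 0.047, adjusted p = 2.45e-21). Its relative CCN2 had 324 and 315 CPM in the monolayers and 727 and 754 CPM in the gels (2.32-fold, log2 1.21 ± 0.045, adjusted p = 2.34e-21). AMOTL2, a feedback inhibitor of YAP, stood at 102 and 99.5 CPM in the monolayers and 167 and 166 CPM in the gels (log2 0.73 ± 0.054, adjusted p = 6.72e-13). For all 3 the gel libraries were above the monolayer libraries. ANKRD1, another standard target, was not called (234 and 232 CPM in the monolayers and 241 and 255 CPM in the gels; log2 0.088 ± 0.047), though it passed without gel library 1 (log2 0.14, adjusted p = 0.0446). The changes of CCN1 and CCN2 were more positive than in control cells: CCN1 changed by log2 0.52 ± 0.046 in control cells (difference log2 0.72 ± 0.065, adjusted p = 1.13e-09) and CCN2 by log2 0.72 ± 0.044 (difference log2 0.49 ± 0.062, adjusted p = 1.03e-06). Over the list the interaction was more positive for 10 members and more negative for 2, and in control cells 9 rose and 7 fell.

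The CCN2 promoter is shown for the TEAD site GGAATG, in capitals, the element through which YAP and TAZ act; the table had no window for CCN1.
CCN2, chr6:131951373-131951622, minus strand: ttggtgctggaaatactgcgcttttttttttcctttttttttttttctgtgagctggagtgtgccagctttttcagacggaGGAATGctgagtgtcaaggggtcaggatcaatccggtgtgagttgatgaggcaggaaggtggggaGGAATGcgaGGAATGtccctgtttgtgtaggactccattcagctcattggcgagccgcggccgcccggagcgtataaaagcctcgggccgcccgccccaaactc
The motif, searched on both strands, was in 1 of the 9 promoters of list members that rose and had a window (11.1%). It was in 9.49% of tested genes and 11.9% of all promoters. Over all tested list members with a window, whether they rose or not, it was in 7 of 21 (33.3%).

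Actin and serum response factor genes went both ways. Of 36 tested members 12 rose and 10 fell, with a median of 0.033. FLNC, a filamin that crosslinks actin, had 191 and 174 CPM in the monolayers and 402 and 403 CPM in the gels (2.21-fold, log2 1.14 ± 0.048, adjusted p = 6.82e-20), and FLNA had 2779 and 2650.4 CPM in the monolayers and 3849.5 and 3815 CPM in the gels (log2 0.50 ± 0.045, adjusted p = 1.12e-10). Both were higher in each gel library. TAGLN, an actin-binding marker of contractile cells, was at 10.99 and 10.6 CPM in the monolayers and 5.59 and 5.10 CPM in the gels (log2 -1.01 ± 0.14, adjusted p = 9.31e-07), with 11.4% of its exonic bases overlapping PCSK7 on the other strand. The tropomyosins TPM1 (log2 -0.41 ± 0.060) and TPM2 (log2 -0.73 ± 0.14) and the myosin light chain MYL9 (log2 -0.32 ± 0.056) fell. In control cells FLNC changed by log2 0.44 ± 0.047, and the difference was log2 0.70 ± 0.067, adjusted p = 4.18e-09.

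Cell cycle genes rose together, by small steps. Of 50 tested S-phase genes 47 rose and none fell, with a median log2 change of 0.38, and of 44 G2/M and mitosis genes 37 rose and none fell, with a median of 0.29. RRM2, a subunit of the enzyme that makes deoxynucleotides, had 238 and 254 CPM in the monolayers and 396 and 417 CPM in the gels (log2 0.72 ± 0.047, adjusted p = 2.25e-14). CDC6, which loads the replicative helicase, stood at 96.7 and 99.4 CPM in the monolayers and 154 and 158 CPM in the gels (log2 0.67 ± 0.052, adjusted p = 1.73e-12). UHRF1, which carries DNA methylation through replication, was at 142 and 136 CPM in the monolayers and 201 and 199 CPM in the gels (log2 0.52 ± 0.050, adjusted p = 3.49e-10). All 6 tested members of the MCM2 to MCM7 helicase rose, by 0.36 to 0.41. Among mitotic genes MKI67, the proliferation antigen (chr10:128096659-128126423), had 361 and 368 CPM in the monolayers and 595 and 609.9 CPM in the gels (log2 0.72 ± 0.049, adjusted p = 6.34e-14). The mitotic kinesins KIF23 (122 and 129 CPM in the monolayers and 176 and 176 CPM in the gels; log2 0.49 ± 0.051, adjusted p = 1.93e-09) and KIF11 (154 and 170.5 CPM in the monolayers and 223 and 225 CPM in the gels; log2 0.46 ± 0.050, adjusted p = 6.33e-09) and the kinetochore gene CENPF (269.7 and 266 CPM in the monolayers and 360.4 and 375 CPM in the gels; log2 0.46 ± 0.049, adjusted p = 5.26e-09) rose too. The 2 groups did not overlap for any of these genes. RRM2 shares 20.2% of its exonic bases with another annotated gene on its strand.

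In control cells 36 S-phase genes rose and none fell, with a median of 0.27, and 18 G2/M genes rose and none fell, with a median of 0.12. The interaction was more positive for 4 S-phase and 9 G2/M genes and more negative for none. MKI67 in control cells had 463 and 417 CPM in the monolayers and 457 and 486 CPM in the gels (log2 0.10 ± 0.049), and the difference was log2 0.63 ± 0.069, adjusted p = 7.15e-08.

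Regulators of G1 rose in 7 of 15 tested cases and fell in 4 (CDKN1C (log2 -0.64), CCNG2 (log2 -0.52), RBL2 (log2 -0.49) and CCNG1 (log2 -0.22)), of which 2 passed without monolayer library 2. CCNG1 lost its call without monolayer library 2 (log2 -0.14) and without gel library 2 (-0.19). CDKN1C lost its call by DESeq2 (log2 -0.64), without monolayer library 2 (-0.51) and without gel library 1 (-0.50). RBL1 rose (59.9 and 62.2 CPM in the monolayers and 91.7 and 91.3 CPM in the gels; log2 0.58 ± 0.062, adjusted p = 3.65e-09) and its relative RBL2 fell (43.4 and 48.5 CPM in the monolayers and 32.8 and 32.8 CPM in the gels; log2 -0.49 ± 0.074, adjusted p = 2.82e-06); both are pocket proteins, RBL1 of cycling and RBL2 of resting cells. CCNG2, a cyclin of arrested cells, fell (48.8 and 49.8 CPM in the monolayers and 34.7 and 34.02 CPM in the gels; log2 -0.52 ± 0.072, adjusted p = 6.09e-07), and the CDK inhibitors CDKN1A (log2 0.023 ± 0.059) and CDKN1B (log2 0.053 ± 0.062) were not called. CDK4 rose (log2 0.24 ± 0.051), with 43.2% of its exonic bases overlapping TSPAN31 on the other strand. Of 13 replication-dependent histone genes, which end without a poly(A) tail and are counted in poly(A) libraries only in part, 4 rose and none fell, with H1-2 at 44.4 and 44.6 CPM in the monolayers and 75.3 and 81.2 CPM in the gels (log2 0.81 ± 0.068, adjusted p = 1.38e-11), and 2 rose without monolayer library 1 or without gel library 2.

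The KIF23 promoter is shown for the pair of motifs that mark genes of G2 and M, the CCAAT box and the cell cycle homology region TTTGAA, both in capitals on either strand.
KIF23, chr15:69414099-69414348, plus strand: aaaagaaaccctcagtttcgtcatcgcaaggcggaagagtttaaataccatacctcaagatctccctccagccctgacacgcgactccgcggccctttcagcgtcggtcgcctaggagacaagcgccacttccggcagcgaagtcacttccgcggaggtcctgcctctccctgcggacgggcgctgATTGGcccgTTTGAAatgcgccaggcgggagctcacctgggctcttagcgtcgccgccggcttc
Of the 37 G2/M genes that rose, 30 had a window. TTTGAA was in 16 of the 30 (53.3%), against 8.43% of tested genes and 13.6% of all promoters, and CCAAT in 23 (76.7%), against 35.0 and 33.0%. Among 41 S-phase genes that rose and had a window, 16 (39.0%) held the E2F site TTCCCGC, which 8.87% of tested genes and 5.58% of all promoters held. Over all tested G2/M members with a window, whether they rose or not, TTTGAA was in 56.8% and CCAAT in 75.7%. For TTCCCGC the share over all tested S-phase members with a window was 37.2%. Both lists hold known cell cycle genes, so these shares describe the lists and are not an independent result.

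**Figure D4:**
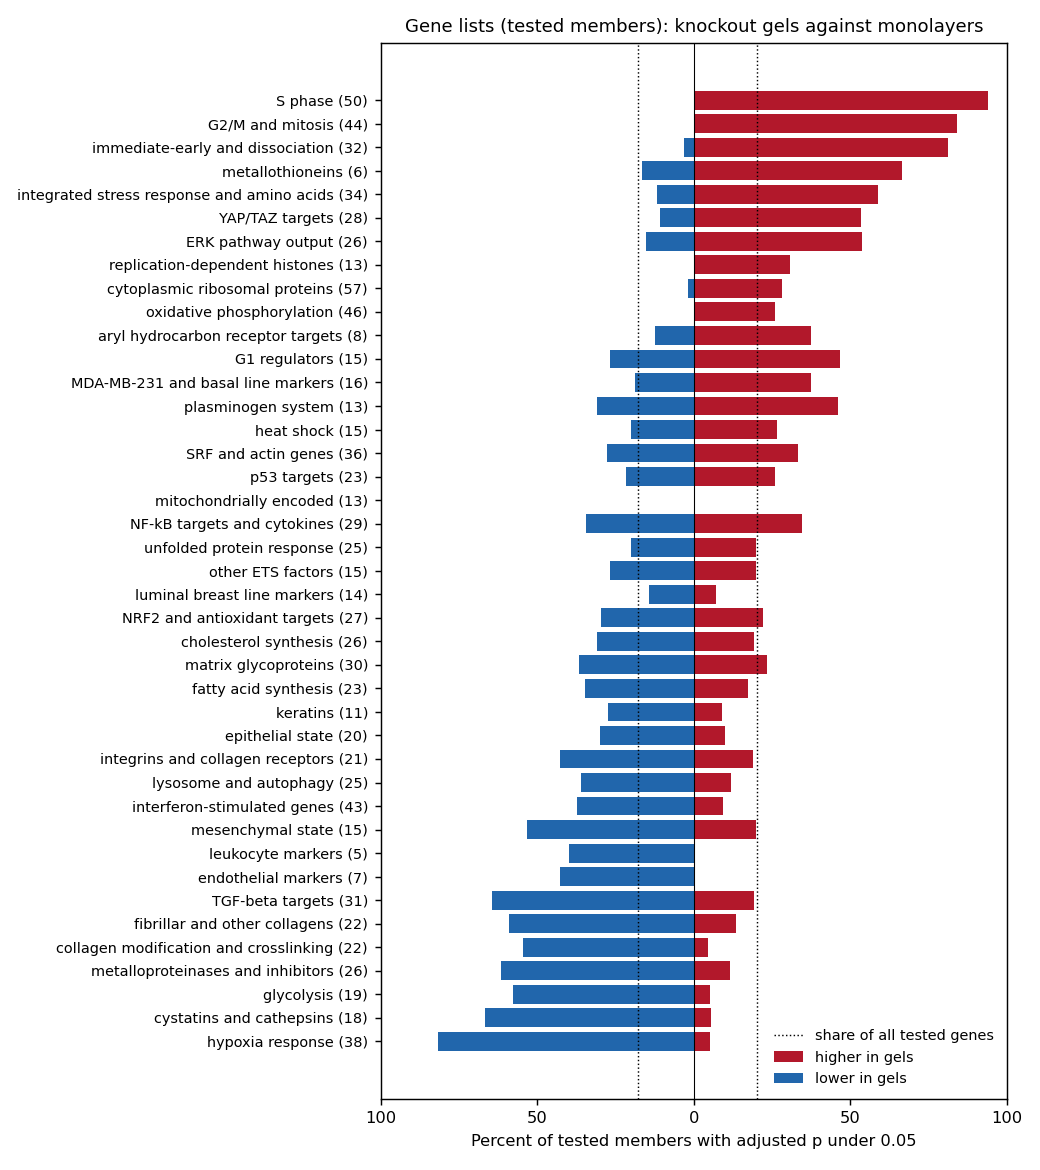
Percent of the tested members of each gene list (number in parentheses) that were higher (red, to the right) or lower (blue, to the left) in knockout gels at an adjusted p under 0.05; lists with fewer than 5 tested members are left out. The dotted lines are the shares of all tested genes, 20.1% higher and 17.9% lower, and the lists are sorted by the difference of the shares, from S phase at the top to hypoxia response at the bottom.

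Inflammatory genes went both ways. The list of NF-kB targets and cytokines had 29 tested members, of which 10 rose and 10 fell, with a median of 0.069. Besides CSF2 and CXCL2, the interleukin IL24 rose (4.05 and 3.54 CPM in the monolayers and 9.48 and 9.04 CPM in the gels; log2 1.29 ± 0.17, adjusted p = 1.72e-07). IL1B, a central inflammatory cytokine, was at 13.6 and 16.3 CPM in the monolayers and 2.96 and 2.60 CPM in the gels (5.38-fold lower, log2 -2.43 ± 0.17, adjusted p = 3.12e-13). Its relative IL1A also fell (1.57 and 1.69 CPM in the monolayers and 0.548 and 0.691 CPM in the gels; log2 -1.39 ± 0.37, adjusted p = 0.00338), with no call by DESeq2 (log2 -1.39, adjusted p = 0.0724). CXCL8, a neutrophil chemokine, had 25.2 and 29.3 CPM in the monolayers and 20.4 and 18.9 CPM in the gels (log2 -0.47 ± 0.097, adjusted p = 1.94e-04), and CXCL1 had 4.41 and 5.67 CPM in the monolayers and 1.21 and 1.28 CPM in the gels (log2 -2.02 ± 0.25, adjusted p = 9.96e-08). The 4 genes were lower in both gel libraries. ICAM1, an adhesion receptor for leukocytes, fell (44.9 and 47.6 CPM in the monolayers and 20.5 and 20.7 CPM in the gels; log2 -1.17 ± 0.078, adjusted p = 5.48e-14), with 21.99% of its exonic bases overlapping a gene on the other strand. TNFSF15, a cytokine of the TNF family outside the list, was among the 12 largest falls (44.8 and 52.4 CPM in the monolayers and 7.45 and 8.45 CPM in the gels; log2 -2.61 ± 0.11, adjusted p = 4.01e-17).

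In control cells 21 of the 29 rose and 2 fell, with a median of 0.41, and the interaction was more negative in knockout for 14 and more positive for none. CXCL8 in control cells had 9.02 and 7.69 CPM in the monolayers and 20.5 and 18.4 CPM in the gels (log2 1.20 ± 0.11), a rise, and the difference was log2 -1.68 ± 0.15, adjusted p = 1.01e-09. CSF2 rose in both kinds of cell, by log2 3.29 ± 0.20 in control cells.

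Interferon-stimulated genes fell more often than they rose, 16 against 4 (ISG15 (log2 0.39), OAS3 (log2 0.38), IFI35 (log2 0.29) and HERC5 (log2 0.26)) of 43 tested, with a median of -0.17; by DESeq2 10 fell and 2 rose, and 2 rose without gel library 2 or with library size alone. IFI35 lost its call by DESeq2 (log2 0.30), with library size alone (0.23), without monolayer library 2 (0.30) and without gel library 2 (0.24). HERC5 lost its call by DESeq2 (log2 0.26), with upper-quartile scaling (0.20), with library size alone (0.19), without monolayer library 1 (0.22) and without gel library 2 (0.23). The signalling subunit STAT2 fell (73.9 and 68.1 CPM in the monolayers and 51.6 and 42.1 CPM in the gels; log2 -0.60 ± 0.086, adjusted p = 2.17e-05). Among the effectors OAS1, which senses viral RNA, fell (5.32 and 5.56 CPM in the monolayers and 2.47 and 2.71 CPM in the gels; log2 -1.07 ± 0.21, adjusted p = 1.06e-04) and ISG15, a ubiquitin-like modifier, rose (31.9 and 30.2 CPM in the monolayers and 39.7 and 41.4 CPM in the gels; log2 0.39 ± 0.078, adjusted p = 1.75e-04).

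Genes of amino acid supply and the integrated stress response rose in 20 of 34 tested cases and fell in 4, with a median of 0.20. The transporters SLC7A1 (146 and 141 CPM in the monolayers and 207 and 206 CPM in the gels; log2 0.52 ± 0.049, adjusted p = 2.35e-10) and SLC7A5 (659 and 649 CPM in the monolayers and 936 and 899.9 CPM in the gels; log2 0.49 ± 0.047, adjusted p = 4.50e-10) and the serine enzyme PSAT1 (149 and 154 CPM in the monolayers and 219.8 and 224 CPM in the gels; log2 0.55 ± 0.049, adjusted p = 5.53e-11) rose, and each was higher in both gels. ATF4, the factor that drives the response, rose (log2 0.28 ± 0.045), while ASNS (log2 -0.37 ± 0.32) and DDIT3 (log2 0.13 ± 0.12), which are among its targets, were not called. In control cells 15 of the 34 rose and 5 fell, and the interaction was more positive in knockout for 7 and more negative for none. Among heat shock genes HSP90AA1 rose (2549 and 2514 CPM in the monolayers and 3118 and 3306 CPM in the gels; log2 0.34 ± 0.045, adjusted p = 1.91e-07), whereas HSPA1A (log2 -0.70 ± 0.098, adjusted p = 7.27e-07) and HSPA1B (log2 -0.41 ± 0.056), stress-induced copies that share reads, fell. Among p53 targets PLK2 (log2 0.78 ± 0.047) and GADD45A (log2 0.63 ± 0.065) rose and GDF15 fell (log2 -0.87 ± 0.14).

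Lipid and redox genes were mixed. Of 26 cholesterol synthesis genes 8 fell, 5 of them without monolayer library 1, and 5 rose (among them TMEM97, SQLE, PMVK and ACAT2, by 0.45, 0.37, 0.30 and 0.20 on the log2 scale), 2 without monolayer library 2, 3 without gel library 2 and 3 with library size alone; the median was -0.022. ACAT2 lost its call with library size alone (log2 0.13), without monolayer library 2 (0.17) and without gel library 2 (0.15). PMVK lost its call without monolayer library 2 (log2 0.23). MSMO1, a sterol oxidase, was at 70.2 and 71.99 CPM in the monolayers and 52.1 and 52.7 CPM in the gels (log2 -0.44 ± 0.061, adjusted p = 6.80e-07). In control cells 15 of the 26 rose and 1 fell, and the interaction was more negative in knockout for 13 and more positive for none. SCD, the desaturase that makes oleate, was at 1218 and 1184 CPM in the monolayers and 816 and 797 CPM in the gels (log2 -0.57 ± 0.049, adjusted p = 3.69e-11). The aldo-keto reductases AKR1B1 (333 and 350.5 CPM in the monolayers and 175 and 175 CPM in the gels; log2 -0.97 ± 0.051, adjusted p = 6.20e-17) and AKR1C1, AKR1C2 and AKR1C3 (-1.24, -1.54 and -0.81) fell; the AKR1C copies share long stretches, so their split is uncertain. Of the 27 tested NRF2 targets 6 rose (22.2%, against 20.1% of all tested genes) and 8 fell (29.6%, against 17.9%), these 4 reductases included. NQO1 was not called (log2 0.040 ± 0.054). The vitamin D hydroxylase CYP24A1 (26.1 and 24.3 CPM in the monolayers and 8.38 and 7.97 CPM in the gels; log2 -1.62 ± 0.11, adjusted p = 2.48e-14) and TFEB, the master factor of lysosome genes (9.001 and 8.40 CPM in the monolayers and 2.30 and 3.14 CPM in the gels; log2 -1.67 ± 0.19, adjusted p = 1.77e-08), were among the 12 largest falls. Of 25 lysosome and autophagy genes 9 fell and 3 rose (among them GLA and CD63, by 0.24 and 0.14 on the log2 scale; 6 with a length and GC correction), with a median of -0.060. GLA lost its call by DESeq2 (log2 0.24), with library size alone (0.17), without monolayer library 1 (0.20) and without gel library 2 (0.20). CD63 lost its call with upper-quartile scaling (log2 0.086), with library size alone (0.072), without monolayer library 2 (0.13) and without gel library 2 (0.12).

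Of 46 tested nuclear genes of oxidative phosphorylation 12 rose (26.1%, against 20.1% of all tested genes) and none fell (against 17.9%), with a median of 0.092. CYC1 was among those that rose (229.5 and 233 CPM in the monolayers and 298 and 303 CPM in the gels, log2 0.38 ± 0.047, adjusted p = 8.15e-08). The 12 became 5 without gel library 2, 7 with upper-quartile scaling or a stricter filter, 6 with library size alone and 19 with a length and GC correction. The 13 mitochondrially encoded genes had a median of -0.43, and none was called; gel library 2 was lowest for their summed level, which was 38531 and 37357 CPM in the monolayers and 34087 and 23419 CPM in the gels. Of 57 cytoplasmic ribosomal protein genes 16 rose and 1 fell (RPL22 (log2 -0.17)), with a median of 0.076. The 16 became 3 without gel library 2, 27 without gel library 1, 9 without monolayer library 2 and 8 with upper-quartile scaling or library size alone, and RPL22 lost its call by DESeq2 (log2 -0.17), without monolayer library 2 (-0.14) and without gel library 1 (-0.069). By class of gene, 2976 of 12419 tested protein-coding genes rose and 2282 fell, with a median log2 change of 0.021, whereas 51 of 1091 long noncoding RNAs rose and 225 fell, with a median of -0.26. The median level over the 4 knockout libraries was 33.0 CPM for protein-coding genes and 1.57 CPM for long noncoding RNAs. Among 12411 protein-coding genes with an annotated length, log2 change and mean CPM had a Spearman rho of 0.333; genes are not independent replicates, and noncoding RNAs are not in that value. The part of RNA quality and of harvest in these results was not tested.

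Between control monolayers and control gels 4158 of the 15568 genes (26.7%) changed, 2486 higher (16%) and 1672 lower (10.7%). Of the genes called in knockout cells 2770 were also called in control cells, 2667 in the same direction and 103 in the opposite one. The difference between the changes was called for 1028 genes (6.6%), more positive in knockout for 415 (2.67%) and more negative for 613 (3.94%), and 840 of the 1028 were also called within knockout cells. Leaving out 1 library left 413 calls without control gel library 1, 627 without control gel library 2, 662 without control monolayer library 1, and 623 without monolayer library 1 or gel library 2, and DESeq2 made 628. The balance of the directions turned with the library left out: 715 were more positive and 619 more negative without gel library 1, 341 and 321 without control monolayer library 1, but 123 and 290 without control gel library 1, 199 and 424 without gel library 2 and 217 and 410 without control gel library 2. Among genes of at least 5 CPM, the smallest adjusted p of the more positive differences were those of DUSP1, MKI67, CCN2, CCN1, FLNC and ANKRD1. ANKRD1 had 351 and 342 CPM in the monolayers and 254 and 259 CPM in the gels in control cells (log2 -0.44 ± 0.046), a fall, and the difference from the uncalled change in knockout cells was log2 0.53 ± 0.065, adjusted p = 7.80e-07. Among the more negative ones were CST1, CA9, PMEPA1, BNIP3, PLAT and CXCL8. CST1 in control cells had 127 and 116 CPM in the monolayers and 79.7 and 68.2 CPM in the gels (log2 -0.72 ± 0.065), and the difference was log2 -1.89 ± 0.13, adjusted p = 4.37e-12. PLAT, which fell in knockout cells, was not called in control cells (log2 0.062 ± 0.050), with a difference of log2 -0.91 ± 0.073, adjusted p = 2.32e-10.

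**Figure D5:**
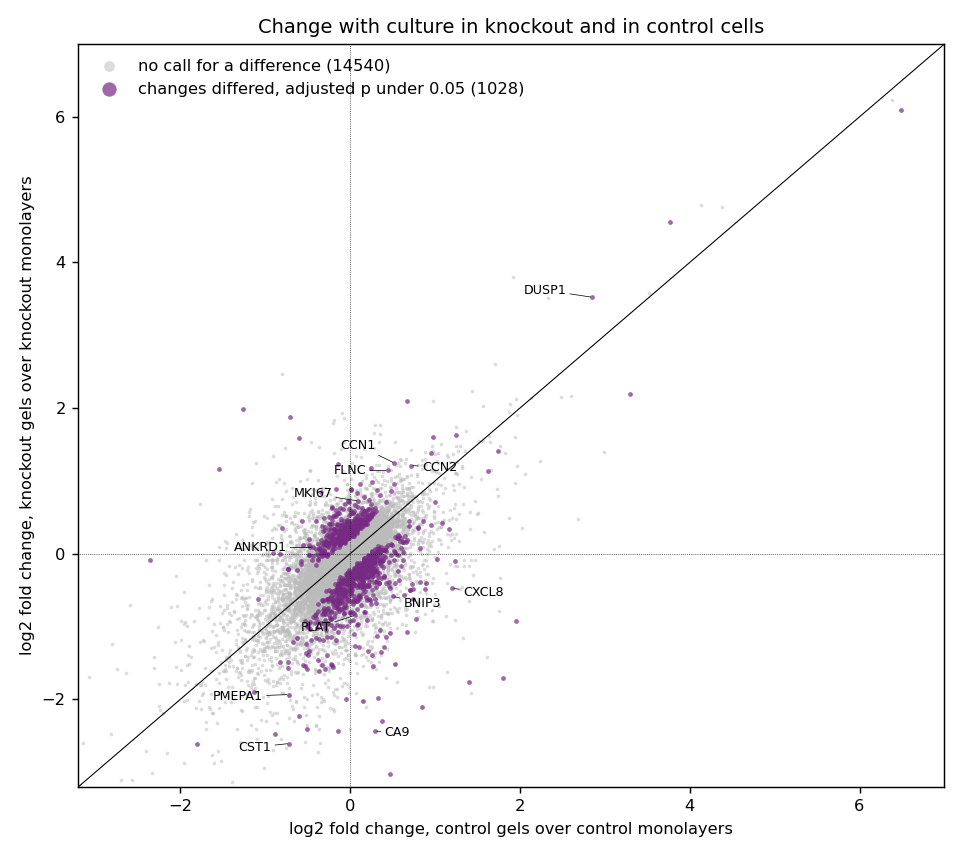
Log2 fold change of gels over monolayers in control cells (horizontal axis) and in knockout cells (vertical axis), 1 point per tested gene, with the line of equal change. The 1028 purple points differed between the 2 kinds of cell at an adjusted p under 0.05; 15 genes with no call for a difference lie outside the axes, and the 12 named genes are the 6 with the smallest adjusted p in each direction.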

How the data were processed

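MDA-MB-231 libraries were compared in 4 groups of 2, knockout and control cells as monolayers and in collagen gels, and groups follow the labels. Per the labels' protocols, DNase-treated RNA went into a stranded kit for poly(A) mRNA. The authors deposited raw counts per gene symbol; the submitters' processing notes name FastQC 0.11.9, STAR 2.7.9a, featureCounts, R 4.1.1 and the build hg38. No source used here states the annotation or strand setting, so counts of genes that overlap on opposite strands or have near-identical copies are uncertain.

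The filter filterByExpr, at a minimum count of 10, kept 15568 of 61228 genes with 99.9% of counts. They were tested with edgeR 4.0.16 in R 4.3.3 by the robust quasi-likelihood F-test, on TMM-scaled counts, with a mean for each of the 4 groups and all 8 libraries in the fit (4 residual degrees of freedom, common dispersion 0.00163, a biological coefficient of variation of 4.03%), and with glmTreat for changes over 1.5-fold. The interaction is the gel change in knockout minus that in control cells. Two-sided p-values received a Benjamini-Hochberg adjustment across all genes tested, and calls were made under 0.05. Replicate libraries varied more than counting error, the chi-squared per degree of freedom being 2.54 for knockout monolayers and 6.31 for knockout gels.

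The comparison, the 43 gene lists, the tests and the naming rule were chosen with earlier results of these data known. The rule named the targeted genes, the 12 largest rises and falls among called genes of at least 5 CPM whose groups did not overlap, up to 4 called members per list by p-value, and the 6 smallest interaction p-values of each sign. Clone, LOC, LINC and antisense names were left out of the largest changes and of the interaction genes. Statements that the groups of a named gene did not overlap describe its libraries only. The share of all tested genes without overlap is not given. Members named because a count was small, or to complete a family, were chosen after their values were seen; they are 81 of the 209 genes named. Alternatives were DESeq2 1.42.0, other scalings and filters, knockout libraries alone, a replicate block, a length and GC correction (mgcv 1.9.3) and leaving out each library. The rule gave 168 genes; the text describes most of them by name, and the others, some of them not reported here, enter the list counts only. The model was tested on simulated counts. Exon overlaps are from GENCODE v29, and gene positions from RefSeq (GRCh38.p14). Promoters are also from RefSeq, matched by symbol for 11102 tested genes.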

Additional observations from a re-analysis of the deposited data

Results flagged for a closer look

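For 64 of the genes named above the change from monolayers to gels differed between knockout and control cells by the interaction test (adjusted p under 0.05 with all libraries and after leaving out each library in turn). A further 31 named genes passed with all libraries but not after leaving out some library and are not listed. The values below are interaction log2 differences, negative where the gel change was lower in knockout than in control cells, and an effect of Cas9 cannot be told apart in them.

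Among hypoxia and glycolysis genes the difference was -2.68 for PPFIA4, -2.73 for CA9, -1.72 for NDRG1, -1.39 for PFKFB4 and -1.09 for BNIP3. It was -0.94 for P4HA1, -0.75 for LDHA, -0.71 for PGK1, -0.65 for ENO2, -0.54 for VEGFA, -0.33 for PKM and -0.31 for GAPDH, and ADM went the other way at 0.54. Cytokines and related genes differed by -2.29 for IL1B, -2.18 for CXCL1, -1.68 for CXCL8, -0.81 for TNFSF15 and -0.80 for ICAM1.

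TGF-beta genes differed by -1.60 for TGFBI, -1.23 for LTBP3 and -1.21 for PMEPA1, and by 0.58 for ID1, 0.46 for TGFB2 and 0.36 for FST. For collagens and their enzymes the values were -0.76 for COL6A3, -0.68 for COL5A1, -0.53 for COL18A1, -0.48 for COL6A1, 0.84 for COL12A1, -0.74 for LOXL4, -0.69 for PLOD2 and -0.44 for TGM2. Proteases and inhibitors gave -1.89 for CST1, -1.01 for CST4, -0.91 for PLAT, -0.81 for ADAM19, -0.70 for MMP14, -0.68 for TIMP1, -0.61 for ADAM8, -0.61 for PLAU and 0.37 for ADAMTS1. Adhesion and epithelial genes gave -0.59 for DDR1, -0.54 for CLDN7, -0.50 for MRC2, -0.50 for KRT7, -0.47 for ITGB4, -0.40 for NT5E, -0.38 for ITGA5 and -0.31 for SDC4.

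More positive in knockout cells were also CCN1 at 0.72, FLNC at 0.70, DUSP1 at 0.67, MKI67 at 0.63, ANKRD1 at 0.53, CCN2 at 0.49, CENPF at 0.44 and PSAT1 at 0.41. The remaining differences were -0.63 for AKR1C3, -0.62 for SCD, -0.36 for LPIN1, -0.47 for AKR1B1, -0.46 for MSMO1, -0.43 for JUNB and -0.29 for DUSP4.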

How the results depend on the processing

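The count of genes changed in knockout gels was 5915 and ran from 4030 by DESeq2 to 6183 with a length and GC correction. Over leaving out each library it ran from 4188 to 5482, with 2236 to 3076 genes higher and 1925 to 2406 lower; DESeq2 called 1675 lower. Changes over 1.5-fold numbered 104 by DESeq2 and 186 to 313 over leaving out each library. The interaction was called for 628 genes by DESeq2 and for 413 to 1334 over leaving out each library. DESeq2 tested 30651 genes and left some without an adjusted p. Why these counts differ was not otherwise tested. At least 67.1% of the genes called in knockout cells were also called under every alternative setting taken singly, and at least 39.5% of those called in the interaction.

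Replicate numbers are shared between groups, but no source used here says that they pair libraries. Across genes, differences between a group's replicates correlated at -0.063 to 0.082 with those of another group, so the main model pairs none. With the replicate block 6108 genes changed and 1203 differed in the interaction.

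Of the named genes' changes in knockout cells under the alternatives, none reversed; 3104 kept their side of the threshold, 106 lost it and 12 gained it. Of the interaction values, 1497 kept their side and 176 lost it. List medians moved by more than the spread between replicates in 146 cases and stayed within it in 413. The keratin median, -0.23, became 0.014 with a stricter filter. Medians nearer 0 also changed sign under some setting for the targeted genes, other ETS factors, heat shock, cholesterol synthesis, SRF and actin, epithelial, NF-kB, unfolded protein response, NRF2, aryl hydrocarbon receptor and luminal lists. Low genes had wide errors: the SE of the log2 change was 0.32 for ASNS, at 1.21 to 1.93 CPM.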

Other observations

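Several lists held few calls or calls that moved with the processing, and their counts are given with the range over all alternatives. Of 25 tested genes of the unfolded protein response 5 rose (0 to 7) and 5 fell (3 to 7), and the chaperone loader DNAJB9 was among those that fell (15.4 and 16.7 CPM in the monolayers and 10.7 and 10.9 CPM in the gels; log2 -0.57 ± 0.11, adjusted p = 1.23e-04). Of 15 heat shock genes 4 rose (3 to 5) and 3 fell (2 to 6). Of 23 p53 targets 6 rose (5 to 9) and 5 fell (2 to 5), with the apoptosis-linked nuclease AEN rising (38.4 and 37.1 CPM in the monolayers and 62.2 and 62.03 CPM in the gels; log2 0.72 ± 0.067, adjusted p = 2.06e-10). Of 23 fatty acid genes 4 rose (1 to 6) and 8 fell (6 to 11); LPIN1, a phosphatidate phosphatase, fell (98.3 and 95.2 CPM in the monolayers and 82.8 and 74.3 CPM in the gels; log2 -0.30 ± 0.059, adjusted p = 1.11e-04).

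Of 8 tested aryl hydrocarbon receptor targets 3 rose (2 to 3) and 1 fell (1 to 2). The hydroxylases CYP1B1 (23.8 and 25.2 CPM in the monolayers and 38.96 and 39.8 CPM in the gels; log2 0.68 ± 0.086, adjusted p = 1.01e-07) and CYP1A1 (7.73 and 9.54 CPM in the monolayers and 13.4 and 12.1 CPM in the gels; log2 0.55 ± 0.13, adjusted p = 0.00120) were higher in both gels, while ALDH3A1 was lower (17.3 and 18.98 CPM in the monolayers and 11.5 and 9.83 CPM in the gels; log2 -0.77 ± 0.11, adjusted p = 6.86e-07). Of 14 luminal line markers 1 rose (0 to 3) and 2 fell (1 to 3), and MLPH was the clearest (119.9 and 118 CPM in the monolayers and 96.6 and 90.3 CPM in the gels; log2 -0.35 ± 0.054, adjusted p = 3.81e-06). SYT12, a synaptotagmin that is on no list, was among the 12 largest falls (15.8 and 15.2 CPM in the monolayers and 5.15 and 5.26 CPM in the gels; log2 -1.57 ± 0.14, adjusted p = 7.42e-11).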
